A study of Mus musculus with 80 samples.

Results

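Interferons are secreted alarm signals that switch on antiviral and antigen presentation genes, and 39 genes of this response were followed here in mouse embryonic stem (ES) cells with altered Sall4 or Sall1. They were chosen by symbol: the heavy and light chains of MHC class I, the peptide loading and immunoproteasome genes that supply it, interferon regulatory factors, RNA sensors, antiviral effectors, interferon receptors and a pair of surface ligands. They are 39 of 37891 gene symbols in the tables. These members and the other gene lists were chosen with earlier results of these data known. Shares of members set beside shares of all genes are therefore descriptions and not tests. All 39 are listed in at least 1 table and 29 in all 12, 31 reached a value of 1 in at least 2 libraries, and 7 stayed under 1 in every library. Values are FPKM or RPKM, which divide the reads of a gene by its length and by the depth of the library. Where values come in pairs, replicate 1 (FPKM) stands before replicate 2 (RPKM), and levels are best read within a replicate. Groups said to overlap or not are compared over both replicates and thus over both units, so this describes the printed values only.

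Type I interferon signals through the receptor chains IFNAR1 and IFNAR2 to the JAK kinases, and a complex that includes STAT2 and IRF9 then binds the interferon-stimulated response element (ISRE) in its target promoters. Interferon gamma signals through IFNGR1 and IFNGR2 to promoters with a gamma-activated site (GAS), and IRF1 is a target that carries the response on to the class I genes. Pluripotent cells are known for little surface MHC class I and a muted response to interferon.

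The series has 80 samples, of which 12 RNA libraries in 9 groups were used and 68 were not analysed here. The libraries labelled Sall4 het carry the genotype Sall4flox/-, those labelled Sall4 KO carry Sall4 delta/-, and the add-back cells are Sall4 KO cells transfected with mutant or wild-type (WT) SALL4A. The mutant add-back of replicate 2 is labelled with a Flag-SALL4A-MUT transgene. Sall4 het, Sall4 KO and the mutant add-back have 2 libraries each. The other groups have 1 library each: the wild-type add-back, the Sall1-/-/Sall4-/- double knockout (DKO), the WT cells for this DKO, Sall1flox/- (Sall1 het), Sall1 delta/- (Sall1 KO) and the wild-type line TT2. Replicate 1, the Sall1 libraries, the wild-type add-back, the DKO and its control are labelled C57BL/6J, replicate 2 is labelled 129P2/OlaHsd with the line E14.1, and TT2 is labelled as an F1 of C57BL/6NCrlj and CBA/JNCrlj. Both libraries of a replicated group carry the same biological sample identifier, although their strain and line labels differ. These labels conflict, so it is not known whether the libraries come from separate cultures. The spread behind each p-value may be technical. What SALL4A residues the mutant changes, how Sall4 was deleted in culture and how many clones were used are not given in the sources used here.

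Depth is unknown in these units. Sall4 RNA went against the label: the libraries labelled Sall4 KO read 358 and 218 against 196 and 64.2 in Sall4 het, and the library labelled DKO read 109 against 17.6 in its control. The add-back libraries read less Sall4 than KO, 77.4 with mutant and 97.4 with wild-type SALL4A against 358 in replicate 1, and 161 with the mutant against 218 in replicate 2. Exons that were not deleted can add to a gene's value, so this checks no label, and each direction here is between libraries as labelled. ES cell markers summed to between 3449 and 7071 in every library, with at least 8 of 10 markers at 1 or more. The summed fibroblast feeder markers were 405 and 411 in the DKO and its control, 210 and 201 in Sall1 het and KO, and between 5.43 and 139 elsewhere. Immune cell markers summed to between 8.09 and 58.7, with 2 to 4 of them at 1 or more in each library. Ptprc, 1 of these 11 markers and the gene of the pan-leukocyte protein CD45, was at most 0.093 where listed. The 3 tables of replicate 2 do not list it, and immune cells are not shown to be absent. In bulk RNA, fewer cells of a type and less RNA per cell cannot be told apart.

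The members spread over a wide range of levels. The interferon-induced transmembrane proteins, which block the entry of viruses, stood highest. Ifitm1 ranged from 80.3 in TT2 to 1522 in Sall4 het replicate 2, Ifitm2 from 359.5 to 870.4, and Ifitm3 from 53 to 420.4. Bst2, which encodes tetherin, a protein that holds budding virus at the cell surface, followed with 21.1 to 188. At the low end, 7 members never reached 1. They were the class I coactivator Nlrc5, the transcription factor Irf7, the double-stranded RNA sensor Ifih1 (MDA5), the ISG15 protease Usp18, and Ifit1, Ifit2 and Ifit3, whose proteins bind viral RNA and translation factors. Rsad2, the viperin gene, peaked at 1.65 in the DKO and stayed at or under 0.524 in the other libraries that list it.

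**Figure D1:**
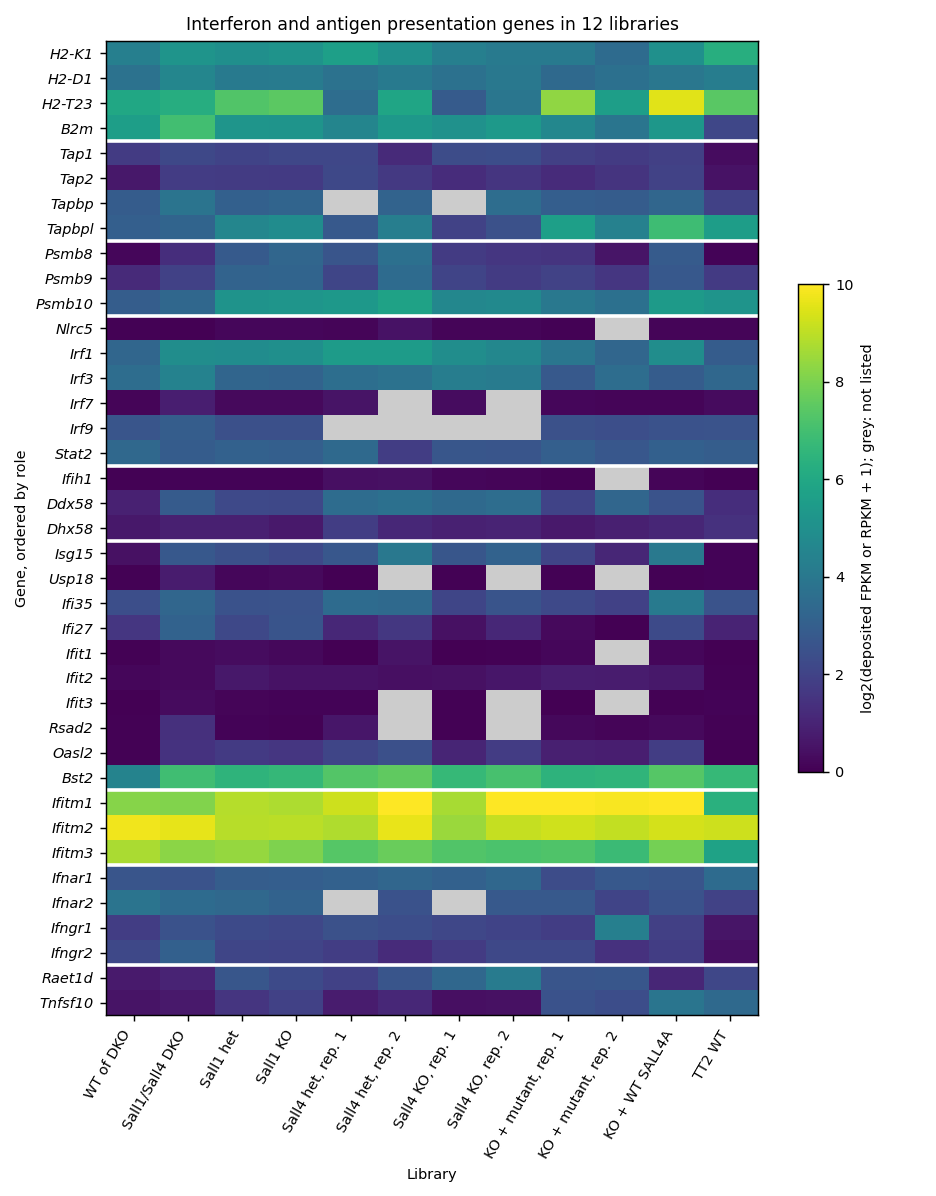
Deposited values of the 39 genes in 12 libraries, as log2(FPKM or RPKM + 1) by colour, with genes in rows ordered by role (white lines separate roles) and libraries in columns; grey marks a table that does not list the gene. Ifitm1, Ifitm2, Ifitm3 and Bst2 are bright in nearly every library, and the 7 genes that never reach 1 are dark in all.

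Promoter sequences show where interferon-responsive letters lie in some members that differed between libraries and in Ifit1, which carries them and stayed near 0. Other members that differed have no such match, as given below. The bases are RefSeq sequence of assembly GRCm38.p6, the 150 bases before the annotated start, 5′ to 3′ on the strand of the gene. Capitals mark matches to an ISRE-like motif, which is 2 copies of GAAA with any 2 bases between them, or a GAS-like motif, TTCNNNGAA, on either strand. In Ifit1 the matches lie on the other strand, and in Bst2 both motifs overlap in 1 run.
Isg15 (chr4:156200819-156200968, minus strand): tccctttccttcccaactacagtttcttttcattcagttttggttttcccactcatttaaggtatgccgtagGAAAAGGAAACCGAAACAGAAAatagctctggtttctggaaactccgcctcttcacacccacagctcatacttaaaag
Bst2 (chr8:71537473-71537622, minus strand): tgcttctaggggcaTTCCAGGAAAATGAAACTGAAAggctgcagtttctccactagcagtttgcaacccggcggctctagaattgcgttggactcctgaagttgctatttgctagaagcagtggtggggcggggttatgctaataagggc
B2m (chr2:122147537-122147686, plus strand): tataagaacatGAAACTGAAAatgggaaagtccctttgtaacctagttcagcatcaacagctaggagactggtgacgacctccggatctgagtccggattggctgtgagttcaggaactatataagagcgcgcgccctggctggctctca
Ifit1 (chr19:34640739-34640888, plus strand): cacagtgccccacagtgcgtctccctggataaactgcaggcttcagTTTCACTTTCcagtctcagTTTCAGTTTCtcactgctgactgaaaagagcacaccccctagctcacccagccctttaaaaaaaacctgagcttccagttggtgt
Irf1 (chr11:53769864-53770013, plus strand): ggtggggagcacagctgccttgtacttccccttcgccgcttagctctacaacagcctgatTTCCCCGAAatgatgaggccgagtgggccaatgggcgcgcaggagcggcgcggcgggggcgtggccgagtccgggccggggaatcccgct
Psmb8 (chr17:34198045-34198194, plus strand): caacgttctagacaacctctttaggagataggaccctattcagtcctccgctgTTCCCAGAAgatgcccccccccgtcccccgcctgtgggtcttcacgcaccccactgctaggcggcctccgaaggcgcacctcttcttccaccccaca
In the 250 bases before the start, the ISRE-like motif was found for 9 of 33 members with an entry (B2m, Bst2, H2-T23, Ifit1, Ifit3, Ifitm2, Isg15, Rsad2 and Stat2). A gene can have several windows, and by window it was found in 9 of 37 for members (24.3%) and in 2.98% of 32851 for all genes. The GAS-like motif was found for 5 members (Bst2, Ifit2, Ifnar2, Irf1 and Psmb8), in 13.5% of the windows of members and 7.02% of all windows. Isg15 has 3 overlapping ISRE-like matches between 78 and 57 bases before its start. The windows of Psmb9 and Tap1, divergent neighbours, overlap, with 226 bases between their starts, and neither motif was found there. H2-K1, Ifi35, Oasl2, Psmb10 and Raet1d, which differed between Sall4 het and KO libraries, had an entry and neither motif. Tap2, Usp18, Tapbpl, Ifi27, Nlrc5 and Dhx58 had no entry. A match is a description of letters and not of binding.

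The MHC class I genes, most of them in the MHC region of chromosome 17, differed among themselves. H2-K1 (mm9, chromosome 17, 34132956 to 34137278), the classical heavy chain that presents peptides to T cells, was 48.7 and 31.3 in the Sall4 het libraries and 18.8 and 16.5 in the Sall4 KO libraries. It was 16.6 and 10.1 with mutant SALL4A and 31.7 with wild-type SALL4A. It was 18.8 in the WT of DKO, 35.1 in the DKO, 30.2 in Sall1 het, 34.6 in Sall1 KO and 76.3 in TT2. The Sall4 het libraries lay above both KO libraries, the mutant add-back libraries lay at the KO level or below it, and the wild-type add-back was within the het range. The fitted log2 change from Sall4 het to KO was -1.14 ± 0.23 (SE, n = 2 per group), with an unadjusted p of 0.00534 and an adjusted p of 0.430 in limma.

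H2-D1 (chromosome 17, 35400038 to 35462354), the other classical heavy chain, was 12.7 and 16 in the Sall4 het libraries and 12.4 and 15.2 in the Sall4 KO libraries. It was 9.7 and 11.8 with mutant SALL4A and 14.5 with wild-type SALL4A. It was 12.5 in the WT of DKO, 23.1 in the DKO, 15.7 in Sall1 het, 17 in Sall1 KO and 17.7 in TT2. The het and KO libraries overlapped, and the DKO held the highest value. Its log2 change from het to KO was -0.09 ± 0.21 (SE, n = 2 per group), with a limma adjusted p of 0.962. This locus is shared by 3 table entries in mm9, so reads of close class I copies may be split between them.

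B2m (chromosome 2, 121945843 to 122011925), the light chain that every class I molecule needs, was 22.5 and 39.3 in the Sall4 het libraries and 32 and 40.3 in the Sall4 KO libraries. It was 23.8 and 14 with mutant SALL4A and 38.1 with wild-type SALL4A. It was 47.4 in the WT of DKO, 126 in the DKO, 36.3 in Sall1 het, 35 in Sall1 KO and 3.43 in TT2. The het and KO libraries overlapped, and the DKO stood apart at 2.65 times its control. The B2m and Tapbpl loci also hold 3 table entries each. Replicate 2 of the mutant add-back was the lowest of the 11 gene-level tables.

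H2-T23 (chromosome 17, 36131448 to 36175119), which encodes Qa-1, a non-classical class I molecule read by natural killer receptors, was 11 and 57.9 in the Sall4 het libraries and 6.26 and 14.2 in the Sall4 KO libraries. It was 323 and 47.3 with mutant SALL4A and 759 with wild-type SALL4A. It was 60.5 in the WT of DKO, 74 in the DKO, 156 in Sall1 het, 175 in Sall1 KO and 174 in TT2. Within each replicate the KO library lay below its het, and the wild-type add-back was the highest library. The tables of Sall4 het and KO replicate 1 read this gene lower than those of the add-back libraries, and 3 entries share the locus, so a comparison of these tables also compares annotations. The fitted log2 change from het to KO was -1.37 ± 1.24 (SE, n = 2 per group), with a limma adjusted p of 0.828. It was 0.24 when Sall4 het replicate 2 was left out. That fit takes the difference between replicates in part from the mutant add-back, and the het and KO pair of replicate 1 had a log2 ratio of -0.71.

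The loading genes were mostly low. Tap1, which encodes a subunit of the peptide transporter of the endoplasmic reticulum, was 3.4 and 1.28 in the Sall4 het libraries and 4.01 and 4.18 in the Sall4 KO libraries. It was 2.32 in the WT of DKO and 3.5 in the DKO, so each library labelled as lacking Sall4 lay above its control. Tap2, the partner subunit, ranged from 0.386 to 3.55. Tapbp, the gene of tapasin, which holds empty class I molecules at the transporter, was 8.02 in Sall4 het and 11 in Sall4 KO of replicate 2, and the tables of their replicate 1 merge it with Zbtb22. It was 7.02 and 6.58 with mutant SALL4A and 8.88 with wild-type SALL4A. It was 6.58 in the WT of DKO, 13.4 in the DKO, 7.27 in Sall1 het, 8.24 in Sall1 KO and 2.79 in TT2. The KO and DKO libraries held its highest values. Tapbpl, whose product TAPBPR edits the peptides of class I molecules, was 5.96 and 18.2 in the Sall4 het libraries and 2.96 and 4.56 in the Sall4 KO libraries. It was 48.6 and 19.8 with mutant SALL4A and 119 with wild-type SALL4A. It was 7.13 in the WT of DKO, 8.43 in the DKO, 22.9 in Sall1 het, 27.9 in Sall1 KO and 46.4 in TT2. The KO libraries were the lowest of all 12, and the wild-type add-back was the highest.

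The immunoproteasome subunits, which replace the constitutive catalytic subunits and change the peptides cut for class I, were lower in the libraries labelled Sall4 KO. Psmb8 (chromosome 17, 34335139 to 34338399) was 5.18 and 11.8 in the Sall4 het libraries and 2.36 and 1.98 in the Sall4 KO libraries. It was 1.84 and 0.481 with mutant SALL4A and 6.29 with wild-type SALL4A. It was 0.143 in the WT of DKO, 1.46 in the DKO, 6.2 in Sall1 het, 8.81 in Sall1 KO and 0.0846 in TT2. The het and KO libraries did not overlap, the WT of DKO and TT2 were near 0, and the Sall1 libraries stood at the het level.

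Psmb10 (chromosome 8, 108459627 to 108462292) was 39.1 and 53.5 in the Sall4 het libraries and 23.9 and 25.9 in the Sall4 KO libraries. It was 15 and 12 with mutant SALL4A and 43.2 with wild-type SALL4A. It was 6.63 in the WT of DKO, 9.05 in the DKO, 34.6 in Sall1 het, 35.8 in Sall1 KO and 35.5 in TT2. Its order was het above KO above mutant add-back, with the wild-type add-back between the het libraries and the DKO pair lowest. Psmb9 (chromosome 17, 34319043 to 34324275) was 3.29 and 10.3 in the Sall4 het libraries and 3.12 and 2.34 in the Sall4 KO libraries. It was 2.97 and 1.98 with mutant SALL4A and 5.7 with wild-type SALL4A. It was 1.3 in the WT of DKO, 2.82 in the DKO, 8.05 in Sall1 het, 8.34 in Sall1 KO and 2.22 in TT2. The pair of replicate 1 differed little and that of replicate 2 had a log2 ratio of -1.80. From het to KO the fitted log2 change was -1.50 ± 0.53 (SE, n = 2 per group) for Psmb8 and -0.89 ± 0.28 (SE, n = 2 per group) for Psmb10. The adjusted p values from limma were 0.562 and 0.524. The change of Psmb8 was -0.65 when Sall4 het replicate 2 was left out.

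Of the transcription factors, Irf1 had the highest median, though Irf3 read higher in the WT of DKO, the mutant add-back of replicate 2 and TT2. Irf1 (chromosome 11, 53583515 to 53591876), whose promoter carries the GAS-like match above, was 44.1 and 44.4 in the Sall4 het libraries and 29.1 and 23.5 in the Sall4 KO libraries. It was 14 and 8.93 with mutant SALL4A and 29.2 with wild-type SALL4A. It was 8.91 in the WT of DKO, 28.8 in the DKO, 28.5 in Sall1 het, 30.8 in Sall1 KO and 6.5 in TT2. The order again ran from het through KO to the mutant add-back, and the WT of DKO and TT2 lay at or below the mutant level. The log2 change was -0.77 ± 0.26 (SE, n = 2 per group) from het to KO and -0.86 ± 0.25 (SE, n = 2 per group) from KO to the mutant add-back. Limma gave adjusted p values of 0.547 and 0.468.

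Irf3 (chromosome 7, 52253017 to 52258218), the factor that RNA sensors activate, went the other way. It was 11.1 and 12.5 in the Sall4 het libraries and 18 and 17 in the Sall4 KO libraries. It was 5.98 and 10.9 with mutant SALL4A and 6.47 with wild-type SALL4A. It was 11 in the WT of DKO, 20.7 in the DKO, 8.68 in Sall1 het, 8.2 in Sall1 KO and 9.08 in TT2. Both KO libraries and the DKO lay above their controls, and its log2 change from het to KO was 0.49 ± 0.31 (SE, n = 2 per group), with a limma adjusted p of 0.732. Stat2 ranged from 2.54 to 9.59, and these ends were the Sall4 het libraries of replicates 2 and 1. Irf9 is listed by 8 of the 12 tables, at 4.25 to 6.75.

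Ddx58 (chromosome 4, 40150809 to 40186858) encodes RIG-I, the cytosolic sensor of viral RNA ends. It was 10.5 and 11.8 in the Sall4 het libraries and 9.72 and 10.8 in the Sall4 KO libraries. It was 3.01 and 8.79 with mutant SALL4A and 4.87 with wild-type SALL4A. It was 0.868 in the WT of DKO, 6.31 in the DKO, 3.65 in Sall1 het, 3.49 in Sall1 KO and 1.44 in TT2. Het and KO overlapped, and the low library was the WT of DKO, from which the DKO differed by a log2 ratio of 1.98. Dhx58 (LGP2), a relative that tunes RIG-I and MDA5, was 2.52 and 1.15 in the Sall4 het libraries and 0.895 and 0.979 in the Sall4 KO libraries. It was 0.588 and 0.827 with mutant SALL4A and 1.1 with wild-type SALL4A. It was 0.572 in the WT of DKO, 0.824 in the DKO, 0.855 in Sall1 het, 0.620 in Sall1 KO and 1.66 in TT2. Both KO libraries lay below both het libraries, at levels near 1.

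Among the antiviral effectors, Isg15 (chromosome 4, 155573532 to 155574927) is a ubiquitin-like protein attached to other proteins during the response. It was 5.59 and 14.9 in the Sall4 het libraries and 5.46 and 7.75 in the Sall4 KO libraries. It was 3.15 and 1.09 with mutant SALL4A and 15.6 with wild-type SALL4A. It was 0.357 in the WT of DKO, 5.67 in the DKO, 4.37 in Sall1 het, 3.61 in Sall1 KO and 0.0780 in TT2. Het and KO overlapped, and the pair of replicate 1 was level. The wild-type add-back was the highest library, and the WT of DKO and TT2 were the lowest. Its fitted change from het to KO was -0.48 ± 0.58 (SE, n = 2 per group), with a limma adjusted p of 0.891. The change was 0.34 when Sall4 het replicate 2 was left out. That fit takes the difference between replicates in part from the mutant add-back, and the pair of replicate 1 had a log2 ratio of -0.02.

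Ifi35 (chromosome 11, 101309725 to 101320015), an interferon-induced leucine zipper protein, was 10.3 and 9.67 in the Sall4 het libraries and 3.28 and 5.05 in the Sall4 KO libraries. It was 3.67 and 2.79 with mutant SALL4A and 15.8 with wild-type SALL4A. It was 4.28 in the WT of DKO, 8.95 in the DKO, 4.71 in Sall1 het, 4.91 in Sall1 KO and 4.93 in TT2. The KO libraries lay below both het libraries, and the wild-type add-back was the highest of the 12. The log2 change from het to KO was -1.13 ± 0.26 (SE, n = 2 per group), with an unadjusted p of 0.00912 and a limma adjusted p of 0.446.

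Oasl2 (chromosome 5, 115346942 to 115362254), of the oligoadenylate synthetase-like family, was 3.21 and 4.47 in the Sall4 het libraries and 1.05 and 2.39 in the Sall4 KO libraries. It was 0.833 and 0.803 with mutant SALL4A and 2.48 with wild-type SALL4A. It was 0.0279 in the WT of DKO, 1.73 in the DKO, 2.23 in Sall1 het, 2 in Sall1 KO and 0.00815 in TT2. It was low throughout, did not overlap between het and KO, and was near 0 in the WT of DKO and TT2. Its log2 change from het to KO was -0.88 ± 0.25 (SE, n = 2 per group), with a limma adjusted p of 0.492.

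Bst2 (chromosome 8, 74058160 to 74061336) was 161 and 188 in the Sall4 het libraries and 103 and 134 in the Sall4 KO libraries. It was 86.8 and 93.1 with mutant SALL4A and 165 with wild-type SALL4A. It was 21.1 in the WT of DKO, 122 in the DKO, 90.4 in Sall1 het, 99.7 in Sall1 KO and 102 in TT2. The het libraries and the wild-type add-back were highest, and the WT of DKO stood alone at the bottom. The log2 change from het to KO was -0.60 ± 0.24 (SE, n = 2 per group), with an unadjusted p of 0.0603 and a limma adjusted p of 0.601. Ifi27, listed under its synonym Ifi27l1 in the gene-level tables, encodes a small mitochondrial membrane protein. It was 1.16 and 2.04 in the Sall4 het libraries and 0.383 and 1.18 in the Sall4 KO libraries. It was 0.193 and 0 with mutant SALL4A and 3.74 with wild-type SALL4A. It was 2.03 in the WT of DKO, 7.78 in the DKO, 3.48 in Sall1 het, 5 in Sall1 KO and 1.02 in TT2. Het and KO overlapped, the mutant add-back libraries were lowest and the DKO was highest.

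**Figure D2:**
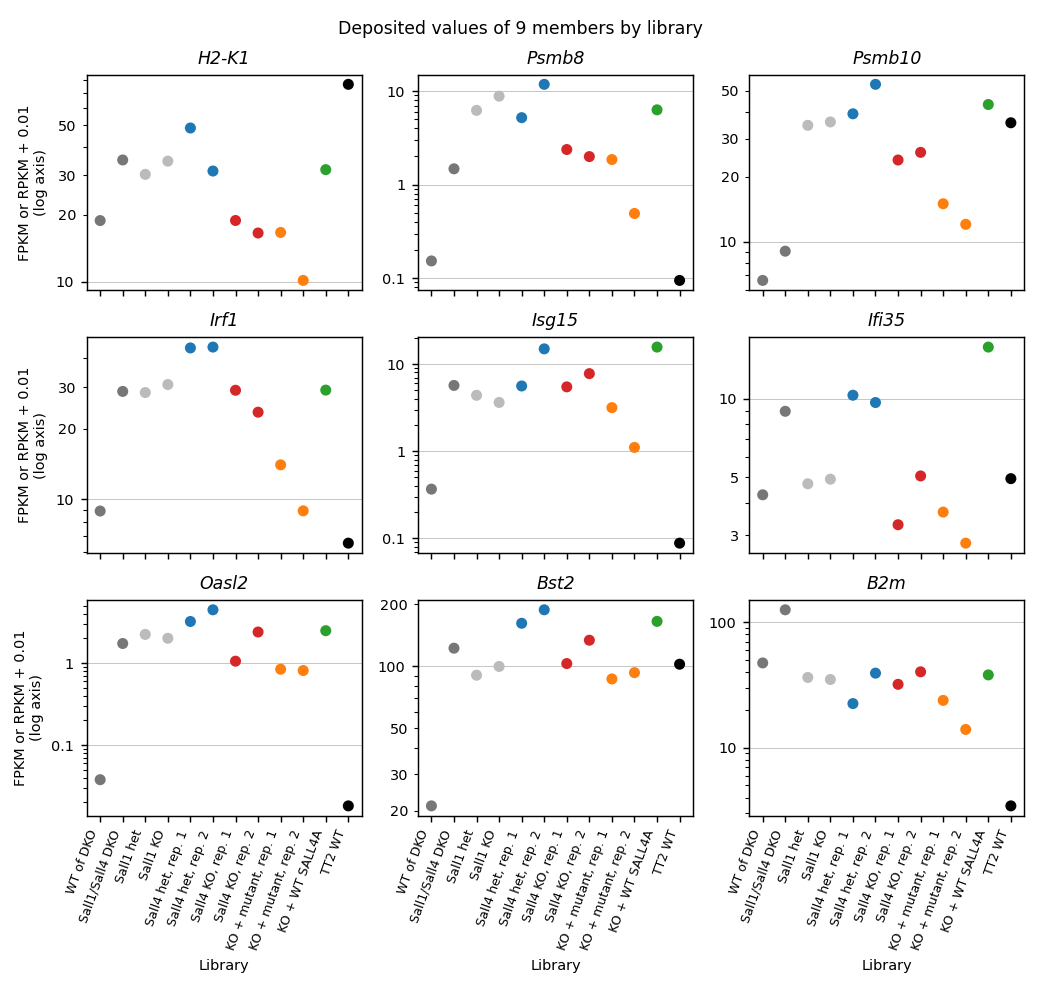
Deposited values (FPKM or RPKM + 0.01, log axis) of 9 genes, 1 point per library: DKO pair dark grey, Sall1 pair light grey, Sall4 het blue, Sall4 KO red, mutant add-back orange, wild-type add-back green, TT2 black. In every panel except B2m each red point lies below the blue point of its replicate, by little for Isg15 in replicate 1. Of 11465 genes, 30.9% were lower in KO in both replicates. In all 9 panels the green point lies above the orange point of replicate 1, and 52.3% of 8084 genes were higher in that pair. The 9 genes were not chosen independently of these data, so these shares do not measure how unusual the panels are. Irf3 and Raet1d, higher in KO in both replicates, are not among the panels.

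The IFITM genes were abundant in every group. Ifitm1 (chromosome 7, 148153327 to 148155726) was 611 and 1522 in the Sall4 het libraries and 408 and 1113 in the Sall4 KO libraries. It was 1067 and 959 with mutant SALL4A and 1258 with wild-type SALL4A. It was 288 in the WT of DKO, 272 in the DKO, 469 in Sall1 het, 429.6 in Sall1 KO and 80.3 in TT2. In each replicate the KO library lay below its het, but the units of replicates 1 and 2 differ, and the groups overlapped. The log2 change was -0.56 ± 0.51 (SE, n = 2 per group) with a limma adjusted p of 0.833. Ifitm2 was 453 and 818 in the Sall4 het libraries and 359.5 and 554 in the Sall4 KO libraries. It was 616 and 546 with mutant SALL4A and 658 with wild-type SALL4A. It was 870.4 in the WT of DKO, 789 in the DKO, 484 in Sall1 het, 493 in Sall1 KO and 597 in TT2. It overlapped between het and KO as well, and its top library was the WT of DKO. Ifitm3 was 164 and 207 in the Sall4 het libraries and 157 and 144 in the Sall4 KO libraries.

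The interferon receptors were low to moderate. Ifnar1 was 7.57 and 8.79 in the Sall4 het libraries and 7.5 and 9.15 in the Sall4 KO libraries. It was 4.01 and 5.73 with mutant SALL4A and 5.22 with wild-type SALL4A. It was 5.3 in the WT of DKO, 4.9 in the DKO, 6.77 in Sall1 het, 6.91 in Sall1 KO and 10.3 in TT2. This was a narrow span, with het and KO overlapping. Ifngr2, the second chain of the gamma receptor, was 2.52 and 1.34 in the Sall4 het libraries and 2.37 and 3.55 in the Sall4 KO libraries, and het and KO overlapped. Ifnar2 was 4.66 in Sall4 het and 5.92 in Sall4 KO of replicate 2, and the tables of their replicate 1 merge it with neighbouring genes. It was 5.91 and 3.18 with mutant SALL4A and 4.78 with wild-type SALL4A. It was 13.4 in the WT of DKO, 10.3 in the DKO, 9.3 in Sall1 het, 7.76 in Sall1 KO and 2.95 in TT2. The DKO pair held its highest values. Ifngr1 was 4.51 and 4.18 in the Sall4 het libraries and 3.38 and 3 in the Sall4 KO libraries. It was 2.54 and 18.9 with mutant SALL4A and 2.71 with wild-type SALL4A. It was 2.55 in the WT of DKO, 4.77 in the DKO, 3.75 in Sall1 het, 3.36 in Sall1 KO and 0.466 in TT2. Replicate 2 of the mutant add-back stood far above every other library. That library is the only one with its table format, so library and format cannot be told apart.

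The surface ligands went opposite ways. Raet1d (chromosome 10, 21878414 to 22093945), a RAE-1 stress ligand seen by the NKG2D receptor of natural killer cells, was 2.81 and 5.14 in the Sall4 het libraries and 9.1 and 16.8 in the Sall4 KO libraries. It was 5.19 and 5.47 with mutant SALL4A and 1.08 with wild-type SALL4A. It was 0.652 in the WT of DKO, 1.01 in the DKO, 5.33 in Sall1 het, 3.69 in Sall1 KO and 3.39 in TT2. The KO libraries were the 2 highest of the 12, and the wild-type add-back and the DKO pair were the lowest. The log2 change was 1.42 ± 0.27 (SE, n = 2 per group) from het to KO and -0.81 ± 0.26 (SE, n = 2 per group) from KO to the mutant add-back. Limma gave adjusted p values of 0.418 and 0.479. In mm9, 7 entries share this locus, so reads of its close copies cannot be assigned with certainty. Raet1e, a related gene, read 26.1 in the DKO and 8.78 in its control, and is not listed for the Sall4 het and KO libraries. The low Raet1d values of the DKO pair are thus not a reading of the whole family.

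Tnfsf10 (chromosome 3, 27215998 to 27238587), the gene of the death ligand TRAIL, was 0.703 and 1.17 in the Sall4 het libraries and 0.344 and 0.368 in the Sall4 KO libraries. It was 4.74 and 4.12 with mutant SALL4A and 13.7 with wild-type SALL4A. It was 0.429 in the WT of DKO, 0.587 in the DKO, 1.95 in Sall1 het, 2.84 in Sall1 KO and 9.82 in TT2. The KO libraries were lowest, the mutant add-back libraries lay above every library of the het, KO, Sall1 and DKO groups, and the wild-type add-back was the highest of all. From KO to the mutant add-back the log2 change was 2.18 ± 0.22 (SE, n = 2 per group), with an unadjusted p of 0.000237 and a limma adjusted p of 0.341. H2-T23, Tapbpl and Tnfsf10 shared this order, with the KO library lowest of its replicate, the mutant add-back above it and the wild-type add-back highest of the 12.

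**Figure D3:**
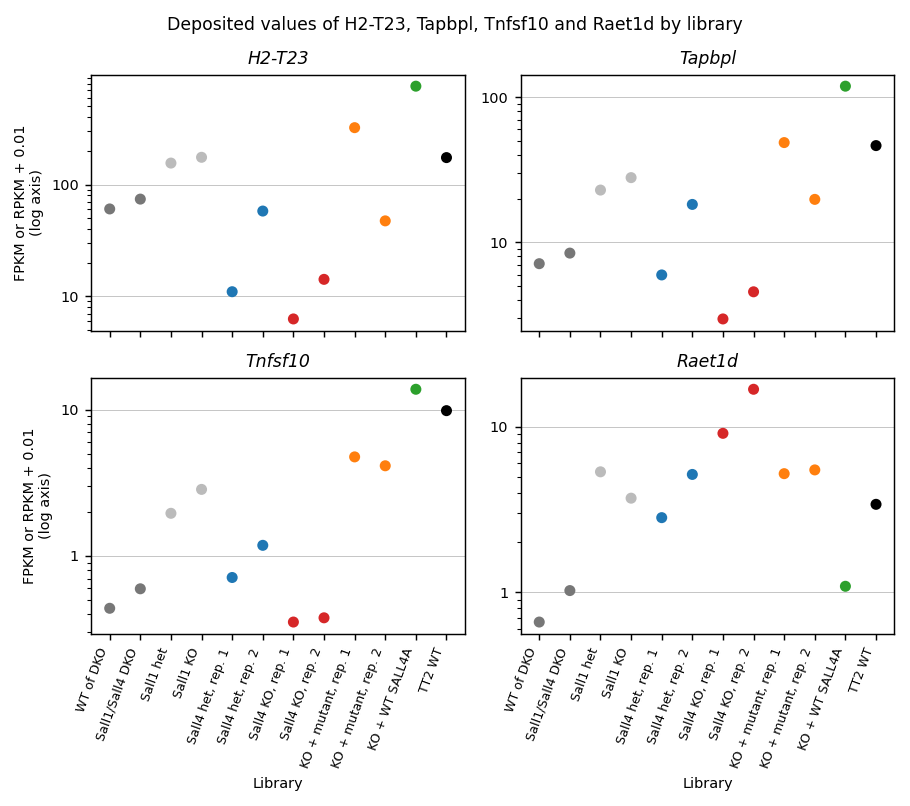
Deposited values (FPKM or RPKM + 0.01, log axis) of H2-T23, Tapbpl, Tnfsf10 and Raet1d, 1 point per library, coloured as DKO pair dark grey, Sall1 pair light grey, Sall4 het blue, Sall4 KO red, mutant add-back orange, wild-type add-back green and TT2 black. In the panels of H2-T23, Tapbpl and Tnfsf10 the green point is the highest and each red point lies below the blue point of its replicate, and for Raet1d the red points are the highest.

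Read over all members, the comparison of Sall4 KO with het asks how the response genes differ between cells labelled as carrying and as lacking Sall4. H2-K1, the 3 immunoproteasome subunits, Irf1 and the effectors Ifi35, Oasl2 and Bst2 were lower in KO in both replicates, and Raet1d was higher. Of 20 members that reach 5 in at least 1 of the 4 libraries, 15 were lower in both replicates at any size, against 30.9% of 11465 genes, and 3 were higher in both (Ifnar1, Irf3 and Raet1d), against 28.1%. For Ifnar1 the log2 ratios were only 0.0010 and 0.0011 on scaled values, and its deposited value was lower in KO of replicate 1. Of 28 members tested, 22 had a negative log2 change and 6 a positive one, against 48.1% of all 15079 genes with a positive one. The median was -0.50 for the members and -0.02 for all genes. Because the members were chosen with earlier results of these data known, these shares and medians describe and do not test. The limma test called 0 of these genes (0%) at an adjusted p of 0.05, with a smallest adjusted p of 0.237, so no member is called. At an unadjusted p of 0.05, 1283 genes passed (8.51%), among them 6 members lower (H2-K1, Ifi35, Oasl2, Psmb10, Irf1 and Psmb8, against 4.71% of genes) and Raet1d higher (3.8%). The 11 members not tested were under the minimum or not listed by all 4 tables.

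Single pairs gave the sizes. In replicate 1, 2 of 19 members were at least 2-fold lower, H2-K1 (-1.31) and Ifi35 (-1.39), as log2 ratios, against 4.51% of genes. In replicate 2, 5 of 22 were (H2-T23, Tapbpl, Psmb8, Psmb9 and Psmb10), against 7.89%. Only Raet1d of 20 members was at least 2-fold higher in both replicates (1.42 and 1.49), against 1.22% of genes, and it was the 1 member 2-fold higher in replicate 1 (4.1% of genes) and in replicate 2 (5.71%). None was 2-fold lower in both (1.47%). Marker sums moved as well, and 6 of 6 endoderm markers tested had a positive log2 change, against 48.1% of all genes. Endoderm markers were 43.2 and 25.6 in het and 77.7 and 51.3 in KO, feeder markers 70.8 and 55.3 against 139 and 49.7, and immune cell markers 31.8 and 19.6 against 39.8 and 42.9. Their part in these differences was not tested.

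Adding SALL4A back asks whether the wild-type and mutant proteins act alike on these genes. Here 20 of 22 members read higher with wild-type SALL4A than with the mutant, against 52.3% of 8084 genes. This pair shares a table format. Among members that reach 5 in a library of the pair, the largest log2 ratios were those of Isg15 (1.96), Ifi35 (1.81), Psmb10 (1.42), Psmb8 (1.32), Tnfsf10 (1.32), Tapbpl (1.23) and H2-T23 (1.18). These 7 members passed 2-fold, against 2.16% of 8084 genes. Raet1d (-1.61) was the 1 member 2-fold lower, against 1.25%, and Ifnar2 was the other lower gene. Ifi27, under 5 in both libraries, had a log2 ratio of 1.97. The members' median was 0.68 and that of all genes 0.01. With 1 library a side these ratios have no test and no replicate check. Feeder markers summed to 32.2 and 21.1 in the wild-type and mutant libraries, immune cell markers to 18.1 and 28.0, and endoderm markers to 26.9 and 41.4, and their part was not tested.

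Comparing add-back cells with Sall4 KO crosses table formats, and in these comparisons the scaling removed a shift of -0.24 to -0.29 on the log2 scale common to all genes. All ratios here are relative to that shift. With wild-type SALL4A, 9 of 21 members were at least 2-fold above KO replicate 1, against 8.73% of genes. They were H2-T23, Tapbpl, Tnfsf10, Ifi35, Ifitm1, Isg15, Psmb8, Ifitm2 and Psmb10. Raet1d (-2.11) and Irf3 (-1.13) were 2-fold lower, against 14% of genes. With mutant SALL4A, 5 of 17 members were 2-fold above KO in replicate 1 (7.75% of genes) and 2 below (13.2%), and in replicate 2 3 of 20 were above (14.8%) and 4 below (2.01%), B2m, Irf1, Isg15 and Raet1d. H2-T23, Tapbpl and Tnfsf10 were at least 2-fold above KO in both replicates, against 1.48% of genes, and 0 of 19 members were 2-fold below it in both (0.935%). Feeder markers moved as well: 4 of 5 tested were 2-fold lower with wild-type SALL4A than in KO (14% of all genes). With the mutant 4 of 4 were in replicate 1 (13.2% of all genes) and 2 of 2 in replicate 2 (2.01%). Their sums were 139 in KO and 32.2 and 21.1 with wild-type and mutant SALL4A in replicate 1, and 49.7 and 12.9 in KO and mutant of replicate 2, and their part was not tested. At any size 6 of 19 members were above KO in both replicates (24.4% of genes) and 9 below (34.7%). For Tnfsf10 the ratios were 2.25 and 2.06, for Tapbpl 3.89 and 2.16, and for H2-T23 5.74 and 1.95.

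Limma called 0 of 11633 genes (0%) between the mutant add-back and KO, with 1136 at an unadjusted p of 0.05 (9.77%). Of 28 members, 3 were higher at that level (Tnfsf10, Tapbpl and H2-T23, against 5.16% of genes) and 2 lower (Irf1 and Raet1d, against 4.61%). Of all genes at that level 600 of 1136 were higher, and 258 of 1878 without scaling. The log2 change was 3.05 ± 0.66 (SE, n = 2 per group) for Tapbpl and 3.87 ± 1.21 (SE, n = 2 per group) for H2-T23, where limma gave adjusted p values of 0.375 and 0.468. Without replicate 2 of the mutant add-back, H2-T23, Tapbpl, Tnfsf10 and Ifitm1 passed an adjusted p of 0.05 (0.00297, 0.00736, 0.0167 and 0.0444), with 786 genes called. Without replicate 1, Ifngr1 passed (0.0491), with 329 genes called. Those fits take the spread of the other groups for the mutant library that is left, and no member passed in both.

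Between the mutant add-back and Sall4 het, limma again called 0 genes (0%), with 1227 at an unadjusted p of 0.05 (10.5%). Of these, 566 were higher, and 192 of 1787 without scaling. The members below het at that level were 9 of 28, against 5.68% of genes: Irf1, H2-K1, Psmb10, Oasl2, Ifi35, Ifi27, Psmb8, Isg15 and Bst2. The log2 change of Irf1 was -1.63 ± 0.25 (SE, n = 2 per group), of H2-K1 -1.26 ± 0.22, of Psmb10 -1.43 ± 0.27 and of Oasl2 -1.25 ± 0.24, each with a limma adjusted p of 0.460. Tnfsf10 (1.69 ± 0.22) and Tapbpl were higher (4.87% of genes). Feeder markers were lower too, 6 of 7 with a median of -0.96, where 49.0% of all genes were higher. At an unadjusted p of 0.05, 4 of them were lower (0 called by limma), and their part was not tested.

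The DKO and its control showed the opposite direction for many of the same genes. Bst2, Isg15, Ddx58, Irf1, Ifi27 and B2m were at least 2-fold higher in the library labelled DKO, as log2 ratios of 2.50, 2.31, 1.98, 1.61, 1.55 and 1.41. These 6 of 22 members compare with 4.84% of 8621 genes. None was 2-fold lower, against 3.67%. At any size 16 of 22 were higher, against 49.3% of genes, with a median of 0.87 against -0.01 over all genes. Oasl2, Rsad2, Tap2 and Psmb8 passed 2-fold as well but lay under 5 in both libraries. Of the 11 gene-level tables the control held the lowest deposited value of Bst2, Isg15, Ddx58, Oasl2 and Psmb8, among others. For B2m and Ifi27 the control did not, and the DKO held the highest value of all libraries. The share of all genes with their lowest value in the control was not computed. The IFITM genes were not higher in the DKO (-0.06, -0.12 and -0.43). The DKO lacks Sall1 as well as Sall4 by its label, so these cannot be told apart. With 1 library a side there is no test, and feeder markers were equally high in both.

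Between the Sall1 libraries the members differed little. Between Sall1 KO and het the log2 ratios of 19 members lay between -0.44 (Raet1d) and 0.44 (Psmb8), none past 2-fold, and of all 8170 genes 0.624% were 2-fold higher and 0.722% lower.

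**Figure D4:**
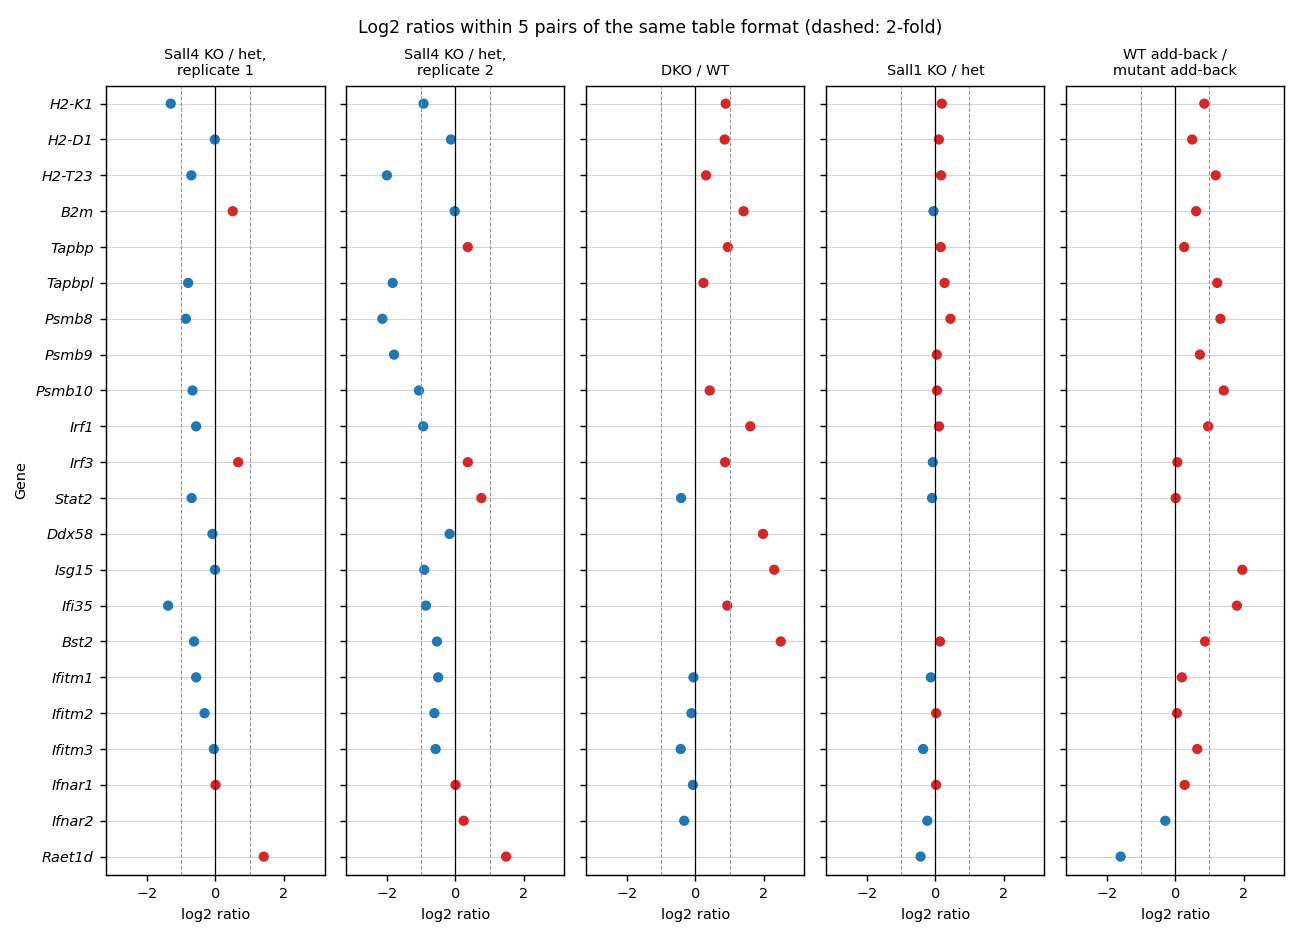
Log2 ratios of 22 genes (rows) within 5 pairs of the same table format (panels), on scaled values with 1 added, for genes that reach 5 in a library of the pair; red points are above 0, blue below, and dashed lines mark 2-fold. Blue points prevail in both Sall4 KO over het panels, where 4 of 19 and 6 of 22 points lie above 0, Raet1d and Irf3 in both. Of all genes, 50.0% and 46.7% lie above 0 there. Red points prevail in the DKO over WT and wild-type over mutant add-back panels, and the Sall1 panel stays near 0.

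Fitting the 3 same-format pairs together, KO against het in both replicates and DKO against WT, limma called 14 of 11811 genes (0.119%) and 0 of 27 members. At an unadjusted p of 0.05, 1687 genes passed (14.3%). Members passing it were Raet1d (1.06 ± 0.28, SE, n = 3 per group), Irf3 (0.62 ± 0.19) and Tap1 (0.59 ± 0.24), all higher in libraries labelled as lacking Sall4, against 7.32% of genes, with limma adjusted p of 0.214, 0.248 and 0.346. Each was higher in 3 of 3 pairs. None of the members lower in the KO pairs passed (6.96% of genes).

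Of the 39 members, 10 differed by table format: H2-T23, B2m, Tapbpl, Psmb8, Irf1, Isg15, Ifi27, Oasl2, Ifngr1 and Tnfsf10. For these the lowest scaled value in 1 format was at least 2 times the highest in another. The share of all genes that differ in this way was not computed, so the count is not read as unusual. The formats hold different genotypes, so genotype and format cannot be told apart. For B2m, Psmb8, Irf1, Isg15, Ifi27, Oasl2 and Ifngr1 the format that stood apart was that of replicate 2 of the mutant add-back, which is 1 library. H2-T23, Tapbpl and Tnfsf10 read lower in the format of Sall4 het and KO replicate 1 than in that library. A further 10 members are not listed by at least 1 format: Tapbp, Nlrc5, Irf7, Irf9, Ifih1, Usp18, Ifit1, Ifit3, Rsad2 and Ifnar2.

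Other interferon-stimulated genes were mostly lower in Sall4 KO too. Of 50 other interferon-stimulated genes 27 could be tested between Sall4 KO and het. Limma called 0, with 8 lower (4.71% of all genes) and 0 higher (3.8%) at an unadjusted p of 0.05. Their median log2 change was -0.63, with 23 lower and 4 higher, where 48.1% of all genes were higher. Oas1a, an oligoadenylate synthetase gene, was 6.58 and 6.87 (het) and 1.36 and 1.79 (KO), Xaf1 8.25 and 19.2 (het) and 3.97 and 5.17 (KO), and Zbp1, a sensor of Z-form nucleic acid, 4.45 and 14.8 (het) and 1.25 and 3.26 (KO). The log2 changes were -1.59 ± 0.24, -1.33 ± 0.31 and -1.60 ± 0.65 (SE, n = 2 per group), and limma gave adjusted p values of 0.356, 0.446 and 0.601. Between the add-back libraries 10 of 10 were higher with wild-type SALL4A (52.3% of all genes), and 4 of them passed 2-fold, against 2.16% of all genes. In the DKO pair 5 of 8 were higher (49.3% of all genes) and 3 lower. There, WT and DKO read 8.48 and 4.47 for Oas1a, 7.39 and 9.13 for Xaf1, and 0.632 and 10.9 for Zbp1, so Zbp1 and Xaf1 were higher in the DKO and Oas1a lower.

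Other antigen presentation genes were 20 lower and 5 higher of 25 tested, where 48.1% of all genes were higher. Their median was -0.53, with 0 called by limma and 5 lower at an unadjusted p of 0.05 (4.71% of all genes). Cd74, the class II invariant chain, was 37.9 and 1.66 (het) and 1.81 and 0.569 (KO), high in 1 het library alone. H2-Bl was 29.7 and 89.2 (het) and 14.3 and 20.9 (KO), and H2-T24 was 5.62 and 6.56 (het) and 2.69 and 1.35 (KO). Of the constitutive proteasome subunits, Psmb6 was 544 and 765 (het) and 307 and 393 (KO), Psmb7 169 and 544 (het) and 177 and 425 (KO) and Psmb5 249 and 325 (het) and 308 and 303 (KO). The limma log2 changes of Psmb6, Psmb7 and Psmb5 were -0.93 ± 0.29, -0.18 ± 0.56 and 0.06 ± 0.30 (SE, n = 2 per group).

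Genes of nucleic acid sensing pointed the other way, with 14 of 17 tested higher in KO, against 48.1% of all genes. Their median was 0.28, with 0 called by limma and 2 higher at an unadjusted p of 0.05 (3.8% of all genes). Aim2, the cytosolic DNA sensor of an inflammasome, was 13.2 and 19.4 (het) and 47.6 and 55.4 (KO), and 18.6 and 52.5 in the WT of DKO and the DKO. It was 8.22 and 16.4 with mutant and 13.3 with wild-type SALL4A. The KO and DKO libraries held its highest values. Its log2 change from het to KO was 1.58 ± 0.29 (SE, n = 2 per group), with a limma adjusted p of 0.417. Nfkbia, the NF-kappaB inhibitor, was 18.4 and 9.81 (het) and 26.3 and 30.9 (KO), and Relb was 9.89 and 5.47 (het) and 4.53 and 5.49 (KO).

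Of 21 genes of interferon ligands and JAK-STAT signalling 13 could be tested, with 9 higher (48.1% of all genes) and 4 lower. Limma called 0, and 0 passed an unadjusted p of 0.05. The negative regulator Pias1 was 6.98 and 5.99 (het) and 8.55 and 10.2 (KO), the phosphatase gene Ptpn6 117 and 61.8 (het) and 135 and 98.7 (KO), and the kinase gene Tyk2 was 6.42 and 2.87 (het) and 6.06 and 6.22 (KO). Of 8 other NKG2D ligand genes 2 could be tested and limma called 0, with both higher at an unadjusted p of 0.05 (3.8% of all genes). Raet1c was 3.09 and 3.03 (het) and 7.28 and 10.3 (KO), a fitted change of 1.21 ± 0.25 on the log2 scale (SE, n = 2 per group), with a limma adjusted p of 0.457. It shares its locus with Raet1d.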

How the data were processed

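RNA was measured by sequencing in 12 libraries. Per the submitters' processing notes the series used Bowtie 0.12.7, TopHat, MACS 1.4.2 and SAMtools on genome build mm9. No source used here names the program behind the expression tables. The deposited FPKM tables (named so per the file headers) hold replicate 1, the Sall1 and DKO pairs, the wild-type add-back and TT2. The deposited RPKM tables (named so per the file headers) hold replicate 2. Neither unit keeps counts, so depth is unknown and no counting interval is given. The gene-level tables have 4 formats, which differ in annotation, and TT2 is at transcript level and entered no comparison. Entries of 1 symbol were summed.

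Scale factors were median ratios over the genes that reach 1 in each library compared, and log2 was taken after adding a pseudocount of 1, so fold changes of low genes are understated. Sall4 het, Sall4 KO and the mutant add-back were fitted together with limma 3.58.1 (R 4.3.3, lmFit, eBayes with trend) on group and replicate number, for genes reaching 1 in 2 libraries or more. The 3 same-format pairs were fitted on genotype and pair. Tests are two-sided with Benjamini-Hochberg adjustment over all genes at 0.05. Single pairs have no test, and genes reaching 5 in a library were counted at 2-fold. Both steps were tested on simulated data. Alternatives were a pseudocount of 0.1, other minimums, unscaled values, no replicate term and leaving out each library or pair. The tables were read with pandas 2.3.3 and NumPy 2.4.6 in Python 3.11.15, and plotted with matplotlib 3.10.9.

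The members and gene lists were chosen with earlier results of these data known. Values of every library are given for members called in a fit, past 2-fold in a pair or in both replicates, among the 2 with the highest median of their role or differing by table format. H2-D1, Tap1, Ifngr2 and Ifitm3 were added in part after their values were seen. From each list up to 3 genes with the largest log2 change from het to KO are named, among genes at 5 or more. Marker lists were ES cell, immune cell, fibroblast feeder and endoderm genes. The samples of other assays were not analysed here.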

Additional observations from a re-analysis of the deposited data

Results flagged for a closer look

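For 6 members both Sall4 KO over het ratios were negative and the DKO over WT ratio was positive, each by at least 0.5 on the log2 scale, a limit chosen after seeing the data. The difference itself was not tested, and the share of all genes with this pattern was not computed. Bst2 had log2 ratios of -0.63 and -0.54 in the KO pairs and 2.50 in the DKO pair. Irf1 had -0.57 and -0.95 against 1.61. Ifi27 had -0.64 and -0.52 against 1.55, with all its het and KO values under 5. Psmb8 had -0.87 and -2.15 against 1.12, with both DKO pair values under 5. Ifi35 had -1.39 and -0.87 against 0.94, and H2-K1 -1.31 and -0.94 against 0.89. The DKO control is wild type while the KO control carries 1 Sall4 allele, so control genotype and Sall1 loss cannot be told apart.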

How the results depend on the processing

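Depth is unknown, the replicates of a group may share 1 culture, and most pairs have 1 library a side. Between Sall4 KO and het 0 genes were called under every alternative, and 19 to 22 members were lower without any 1 library. With genes at 5 or more in at least 2 libraries 14 of 18 members tested were lower, since fewer members pass that minimum. Without 1 library, the H2-T23 change ran from -2.99 to 0.24 and that of Isg15 from -1.30 to 0.34. Both were positive only without Sall4 het replicate 2, where the replicate term rests in part on the mutant add-back. The het and KO pair of replicate 1 had log2 ratios of -0.71 (H2-T23) and -0.02 (Isg15), so these positive values are not a reading of KO above het. For the mutant add-back against KO, leaving out 1 library gave 0 to 786 calls, and against het 0 to 677, where a pseudocount of 0.1 gave 1. Without replicate 2 of the mutant add-back, H2-T23 (6.10 against KO), Tapbpl (4.19) and Tnfsf10 (2.40, and 1.89 against het) passed. Against het, 677 genes were called without its replicate 2 and 211 without its replicate 1. On deposited values the median of all genes moved to -0.28 against KO and -0.24 against het. In the 3-pair fit deposited values gave 30 calls, no replicate block gave 3, and leaving out a pair gave 0 to 8, with 10 to 21 members lower. In single pairs, members at least 2-fold higher numbered 2 for KO over het replicate 2 and 10 for DKO over WT at a minimum of 1, and on deposited values the mutant add-back over KO replicate 1 had 3 at 2-fold and 5 higher at any size. Of 656 values of single members under alternatives, 638 kept direction and side. Same-numbered libraries deviated together with correlations over genes of 0.579 (het and KO), 0.105 (het and mutant) and 0.0644 (KO and mutant). The replicate term thus describes a deviation that het and KO shared and the mutant libraries shared little. Same-numbered het and KO libraries also share a table format, so the numbers are not shown to pair the samples. Without the replicate block 0 genes were called in each of the 3 comparisons between groups, as with it. The cause of these shifts was not tested.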

Other observations

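The wild-type line TT2 entered no comparison, and its table is at transcript level. It read 0.0780 for Isg15, 0.00815 for Oasl2, 0.0846 for Psmb8 and 3.43 for B2m, while H2-K1 was 76.3, the highest of the 12 libraries, and Tnfsf10 was 9.82. The other wild-type library, the control of the DKO, read 0.357, 0.0279 and 0.143 for Isg15, Oasl2 and Psmb8. Isg15, Oasl2 and Psmb8 were lower in these wild-type libraries than in any of the other 10 libraries. These genes were named with their values known, and the share of all genes with this order was not computed. The wild-type libraries differed for B2m and H2-K1, which read 47.4 and 18.8 in the control of the DKO.

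Ifit1 and Ifit3, with 2 ISRE-like matches each in the 250 bases before their starts, stayed at or under 0.453 and 0.226, in the same libraries in which Isg15, with 3 such matches, reached 15.6.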
